A study of Mus musculus with 3 samples.

Results

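Plasma protein genes of the liver were examined in mouse muscle through 10 genes: Alb, Apoa1, Apoa2, Apoc3, Ttr, Trf, Fga, Fgb, Fgg and Ahsg. They were chosen by name, as every non-control probe whose listed gene name is one of these symbols, out of 27665 genes on the array. The 10 genes had 11 probes and 20 spots on each array. For 9 of them the symbol stood in the scanner files. Alb was listed there under its older symbol Alb1 and was found through the accession of its probe. The study compared 3 groups of male mice aged 6 weeks: swimming mice whose food held 0.5% Chlorella powder, a unicellular green alga, swimming mice on normal food, and nonswimming mice on normal food. After 14 days total RNA of muscle was pooled from the 10 mice of a group and hybridised to 1 single-colour array, so each group was 1 array and neither a mouse-to-mouse error nor a test between groups could be had. The sources used here do not give which muscle was taken or how long the mice swam.

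Hepatocytes make most proteins of blood plasma. Albumin (Alb) carries fatty acids and hormones and holds water in the vessels, transthyretin (Ttr) carries thyroid hormone and the retinol-binding protein, and transferrin (Trf) carries iron. Apolipoproteins A-I and A-II (Apoa1, Apoa2) are the main proteins of high-density lipoprotein, and apolipoprotein C-III (Apoc3) slows the clearance of triglyceride-rich particles. Fibrinogen, the precursor of the fibrin clot, is built from the chains encoded by Fga, Fgb and Fgg, and Ahsg encodes fetuin-A, an inhibitor of calcification in tissues. These messengers are abundant in liver, and adult muscle fibres are not known as a main source of them. Transferrin is also made outside the liver, for example by oligodendrocytes of the brain.

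The values are processed signals in intensity units. For comparison between arrays each signal was divided by the 75th percentile of its array, which was 237.8 on the Chlorella swimming array, 295.0 on the normal food swimming array and 285.9 on the nonswimming array, and a log2 ratio is the difference of the log2 scaled signals. The error of a signal or ratio is the scanner software's error and holds no difference between mice. A probe was well above background where the scanner software said so, and 23448, 24858 and 23841 of 41169 probes were, in the same order of arrays. None was saturated. As a check of the tissue label, 24 of 24 markers of muscle fibres were well above background on every array, with summed scaled signals of 10243 on the Chlorella swimming array, 7907 on the normal food swimming array and 9065 on the nonswimming array.

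Of the 10 genes, 9 were well above background on all 3 arrays, and Ttr was so on the nonswimming array alone. In the scaled signals Alb, Apoa1, Apoa2 and Apoc3 stood in one order: lowest on the Chlorella swimming array, between on the normal food swimming array and highest on the nonswimming array. The 3 fibrinogen genes and Ahsg were close on both swimming arrays and higher on the nonswimming array. Trf was highest on the normal food swimming array. The summed scaled signal of the 10 genes was 18.9 on the Chlorella swimming array, 24.0 on the normal food swimming array and 31.0 on the nonswimming array. In pooled tissue RNA, fewer cells of a type and less RNA per cell cannot be told apart.

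**Figure D1:**
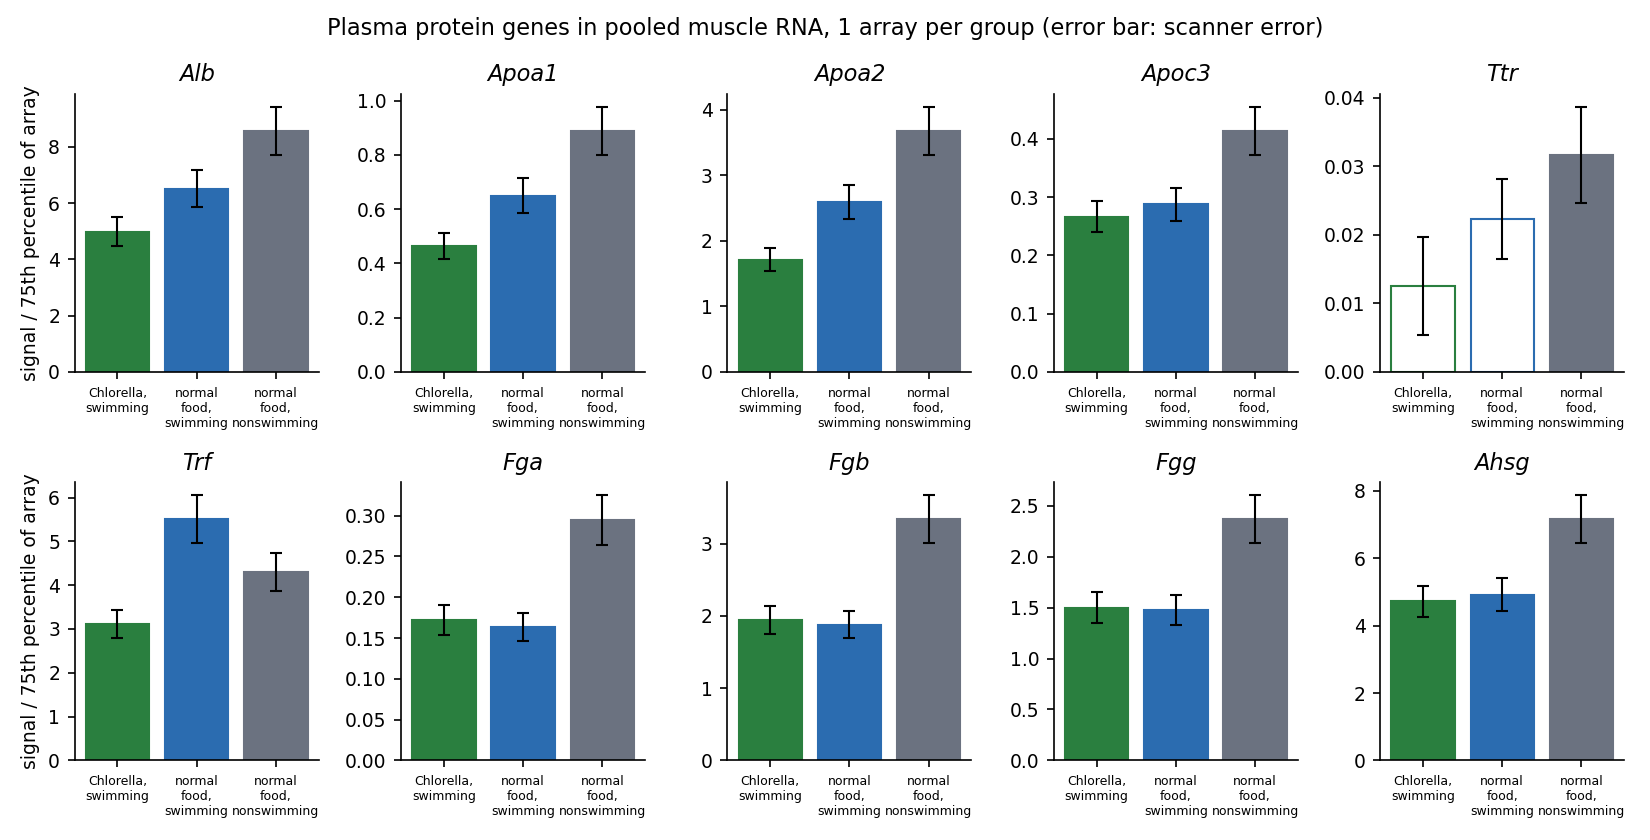
Signal of each of the 10 genes divided by the 75th percentile of its array (vertical axis, no unit, starting at 0) on the Chlorella swimming, normal food swimming and normal food nonswimming arrays, 1 array per group. Bars are signals, error bars are the scanner error, and open bars are not well above background. Every gene but Trf is highest on the nonswimming array.

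The upstream sequences of 5 of these genes are shown because Fga, Fgb and Fgg lie side by side and had nearly the same ratios between arrays, and Alb and Apoa1 stand for the carriers and the apolipoproteins. They are the 200 bases before the annotated start, 5′ to 3′ on the gene's own strand, from RefSeq's promoter table of assembly GRCm38.p6, in which 7 of the 10 genes were found. Capitals mark matches, on either strand, to 6 motifs: GTTAAT (a motif known from promoters of liver genes), TTNTGTAA (the D-box of the albumin promoter), CTGGGAA (the core of the interleukin-6 element of fibrinogen genes), CCAAT (a common promoter box), TGTTTNC (the core of FOXA sites) and TATAAA. No 2 matches overlap in these windows. Fga lies at chr3:83025953-83026152 on the plus strand, Fgb at chr3:83049864-83050063 on the minus strand, Fgg at chr3:83007524-83007723 on the plus strand, Alb at chr5:90460670-90460869 on the plus strand and Apoa1 at chr9:46228430-46228629 on the plus strand.
Fga: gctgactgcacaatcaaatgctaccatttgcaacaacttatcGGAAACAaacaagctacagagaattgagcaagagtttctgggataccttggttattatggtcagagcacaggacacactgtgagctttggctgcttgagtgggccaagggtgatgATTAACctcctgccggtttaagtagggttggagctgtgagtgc
Fgb: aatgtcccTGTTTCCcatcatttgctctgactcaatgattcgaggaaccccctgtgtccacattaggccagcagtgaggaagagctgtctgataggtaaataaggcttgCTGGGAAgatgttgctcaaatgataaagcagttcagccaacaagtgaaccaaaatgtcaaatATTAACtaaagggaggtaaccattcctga
Fgg: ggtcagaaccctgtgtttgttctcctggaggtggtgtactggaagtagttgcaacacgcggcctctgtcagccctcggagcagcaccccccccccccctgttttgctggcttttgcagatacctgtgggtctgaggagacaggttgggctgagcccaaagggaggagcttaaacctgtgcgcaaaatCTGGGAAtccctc
Alb: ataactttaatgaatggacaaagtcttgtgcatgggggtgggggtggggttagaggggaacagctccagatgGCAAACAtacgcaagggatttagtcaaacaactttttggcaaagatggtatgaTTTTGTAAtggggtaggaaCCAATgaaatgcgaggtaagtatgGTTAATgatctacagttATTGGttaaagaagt
Apoa1: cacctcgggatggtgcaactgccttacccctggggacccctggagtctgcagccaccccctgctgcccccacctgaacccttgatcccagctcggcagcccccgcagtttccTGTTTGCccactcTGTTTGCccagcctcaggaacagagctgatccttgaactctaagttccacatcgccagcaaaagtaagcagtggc

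GTTAAT was found 32 bases before the start in Alb, 43 in Fga and 29 in Fgb, which makes 3 of the 8 promoters of the 7 genes, against 5.06% of 32851 RefSeq promoters cut to the same window. CTGGGAA stood 91 bases before the start of Fgb and 13 before that of Fgg, against 7.26% of all promoters. TGTTTNC was in 6 of the 8, with 2 matches in Apoa1, against 14.1%. TTNTGTAA was in Alb alone among the 8, against 2.71%. CCAAT was in 3, that of Alb and both of Apoa2, against 29.3%, and TATAAA in 0 against 9.96%. TTNTGTAA and CTGGGAA are known from the albumin promoter and fibrinogen genes themselves. Their matches in Alb, Fgb and Fgg were therefore foreseeable and show no enrichment. GTTAAT is likewise known from promoters of liver genes. These are matches of letters in the RefSeq sequence, and nothing was measured on binding.

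Alb had a signal of 1187 ± 119 units on the Chlorella swimming array, 1922 ± 192 on the normal food swimming array and 2451 ± 245 on the nonswimming array. The scanner files, which name no genome build, place its probe on chromosome 5, start 90443687 and end 90443746. Scaled, the signals were 4.99, 6.52 and 8.57. The Chlorella swimming array was thus lowest and the nonswimming array highest. The log2 ratio of Chlorella over normal food in swimming mice was -0.38 ± 0.20, that of swimming over nonswimming on normal food was -0.40 ± 0.20, and that of Chlorella swimming over nonswimming was -0.78 ± 0.20. Of these ratios, only the last exceeded its 95% limit of scanner error, which ran from -1.18 to -0.38. On RefSeq's map the genes after Alb are Afp, encoding alpha-fetoprotein, and Afm, encoding afamin, a vitamin E carrier. Afp was not well above background on any array, and Afm had ratios of -0.49, 0.17 and -0.32 in the same 3 comparisons.

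Apoa1 was read by 10 spots of the same probe on each array, on chromosome 9 from 46187961 to 46188020 in the files' coordinates, which gives a view of the technical error. Its mean signal was 110.5 ± 11.1 units on the Chlorella swimming array, 191.7 ± 19.2 on the normal food swimming array and 253.9 ± 25.4 on the nonswimming array. The scaled signals of the 10 spots ran from 0.427 to 0.493 with a median of 0.467 on the Chlorella swimming array, from 0.614 to 0.679 with a median of 0.652 on the normal food swimming array, and from 0.837 to 0.964 with a median of 0.882 on the nonswimming array. No spot of one array overlapped those of another. The SD between spots was 0.018, 0.019 and 0.036, and the spots share 1 RNA pool per array, so this spread says nothing of differences between mice. The log2 ratios were -0.48 ± 0.21 for Chlorella over normal food in swimming mice, -0.45 ± 0.20 for swimming over nonswimming and -0.93 ± 0.21 for Chlorella swimming over nonswimming. Each exceeded the 95% limit of its scanner error, and none reached 2-fold. Apoa1 on the Chlorella swimming array stood at 52.3% of its nonswimming level.

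**Figure D2:**
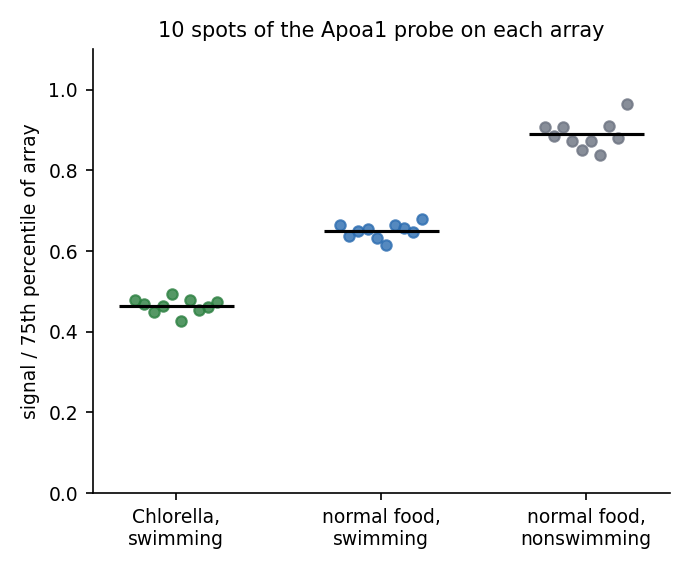
Scaled signal (signal divided by the array's 75th percentile, vertical axis from 0) of the 10 spots of the Apoa1 probe on the Chlorella swimming, normal food swimming and normal food nonswimming arrays. Points are spots and lines are their means. The spots end at 0.493 on the Chlorella swimming array and begin at 0.614 on the normal food swimming array and at 0.837 on the nonswimming array.

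Apoa2, the partner of Apoa1 in high-density lipoprotein, had a signal of 407.8 ± 40.8 units on the Chlorella swimming array, 763.8 ± 76.4 on the normal food swimming array and 1051 ± 105 on the nonswimming array. The probe is placed on chromosome 1 from 171195820 to 171195879. The scaled signals, 1.71, 2.59 and 3.68, kept the order seen for Alb and Apoa1. The ratios were -0.59 ± 0.20, -0.51 ± 0.20 and -1.10 ± 0.20, in the same order of comparisons, and all lay beyond the scanner limit. Apoa2 in Chlorella swimming over nonswimming was the only one of the 9 measured genes to pass 2-fold in any comparison, at 46.6% of the nonswimming level.

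Apoc3 had 2 probes, on chromosome 9 from 46191393 to 46191452 and from 46191403 to 46191462, that overlap. The brighter one, which stands for the gene, had a signal of 63.4 ± 6.5 units on the Chlorella swimming array, 84.8 ± 8.6 on the normal food swimming array and 118.3 ± 11.9 on the nonswimming array. The dimmer one had 46.8, 70.1 and 83.3 units on the same arrays. Both probes were lowest with Chlorella and highest in nonswimming mice. For Chlorella over normal food in swimming mice their ratios were -0.11 and -0.27, and for swimming over nonswimming -0.52 and -0.30. Only the -0.52 of the brighter probe lay beyond the scanner limit among these. For Chlorella swimming over nonswimming the ratios were -0.63 and -0.57, both beyond it, and -0.41 for the brighter probe with normexp background correction. Apoc3 lies between Apoa1 and Apoa4 on RefSeq's map, with Apoa5 next. Apoa5, which encodes an activator of triglyceride breakdown, had ratios of 0.11, -0.73 and -0.62 in the 3 comparisons. Apoa4, an apolipoprotein made mainly by the intestine, had signals of 2.77, 4.67 and 8.96 units and was well above background on the nonswimming array alone.

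Ttr, also a product of the choroid plexus of the brain, had signals of 2.99 ± 1.70, 6.57 ± 1.74 and 9.05 ± 2.01 units on the Chlorella swimming, normal food swimming and nonswimming arrays. Only the last was well above background. Set against the nonswimming array, Ttr was at least 1.20-fold lower with Chlorella and at least 1.42-fold lower in swimming mice on normal food, by its bounds. Such a bound sets the bright signal against the higher of the dim probe's own signal and the lowest signal well above background on that array, which was 6.26 with Chlorella and 5.78 in swimming mice on normal food. These bounds leave out the scanner error: the 95% limits of the measured ratios, -1.48 to 0.47 for swimming over nonswimming and -3.06 to 0.40 for Chlorella swimming over nonswimming, include 0, so Ttr was not told apart between arrays. No fold was formed between the swimming arrays.

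Trf departed from the other genes. Its signal was 740.6 ± 74.1 units on the Chlorella swimming array, 1623 ± 162 on the normal food swimming array and 1230 ± 123 on the nonswimming array, and the scaled signals were 3.11, 5.50 and 4.30. The normal food swimming array was the highest and the Chlorella swimming array the lowest. The ratios were -0.82 ± 0.20 for Chlorella over normal food in swimming mice, 0.35 ± 0.20 for swimming over nonswimming and -0.47 ± 0.20 for Chlorella swimming over nonswimming. The first and the last lay beyond the scanner limit, and the middle one did not. Trf was the lowest of the 9 genes in the first comparison, where 6.25% of all genes were lower still, and the highest of the 9 in the swimming comparison.

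The probes of the fibrinogen genes lie on chromosome 3, from 83136441 to 83136500 for Fga, from 83147097 to 83147156 for Fgb and from 83119588 to 83119647 for Fgg. Fga had signals of 40.9 ± 4.5, 48.3 ± 5.1 and 84.2 ± 8.7 units on the Chlorella swimming, normal food swimming and nonswimming arrays. Fgb had 461.4 ± 46.2, 554.2 ± 55.4 and 954.2 ± 95.4 units. Fgg had 356.3 ± 35.7, 435.1 ± 43.5 and 676.1 ± 67.6 units. After scaling, the swimming arrays differed by less than the scanner error for each chain. Chlorella over normal food gave 0.07 ± 0.22 for Fga, 0.05 ± 0.20 for Fgb and 0.02 ± 0.20 for Fgg, with 95% limits for Fgb of -0.35 to 0.45, so differences of that size could have been missed. Swimming over nonswimming on normal food gave -0.85 ± 0.21, -0.83 ± 0.20 and -0.68 ± 0.20 for the chains in the same order, all beyond the scanner limit. In this comparison 1.76%, 1.85% and 2.96% of all genes had a lower ratio than Fga, Fgb and Fgg. Chlorella swimming over nonswimming gave -0.78, -0.78 and -0.66, and Fgb stood at 58.1% of its nonswimming level. Fga is dim, and normexp background correction moved its ratio to -0.35 for swimming over nonswimming and to -0.24 for Chlorella swimming over nonswimming, while Fgb and Fgg moved by less than their scanner error.

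Ahsg had a signal of 1121 ± 112 units on the Chlorella swimming array, 1448 ± 145 on the normal food swimming array and 2044 ± 204 on the nonswimming array, read by a probe on chromosome 16 from 22560686 to 22560745. Scaled, it was 4.71, 4.91 and 7.15. Like fibrinogen, it differed by less than the scanner error between the swimming arrays (-0.06 ± 0.20) and was lower there than on the nonswimming array (-0.54 ± 0.20 for swimming and -0.60 ± 0.20 for Chlorella swimming). On RefSeq's map Tbccd1 and Dnajb11 lie before it, and after it lie Fetub, encoding the related fetuin-B, with ratios of 0.02, -0.33 and -0.31 in the 3 comparisons, and Hrg, encoding histidine-rich glycoprotein, with 0.29, -0.32 and -0.04.

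Chlorella against normal food in swimming mice asks how muscle RNA differed with the alga in the food. None of the 9 measured genes was at least 2-fold lower or higher, where 4.86% of 15508 genes on these arrays were lower and 1.37% higher by that size. Apoa1, Apoa2 and Trf, 3 of 9, were lower beyond the scanner limit, against 12.3% of all genes, and 0 of 9 were higher beyond it, against 11.5%. At 1.5-fold, Apoa2 and Trf, 2 of 9, were lower, against 9.17%. By any size 6 of 9 were lower, against 40.1%. The median of the 9 genes was -0.11 beside 0.08 for all genes. Values between the quartiles of all genes, -0.16 to 0.27, held 5 of the 9, and the other 4 lay below. The sign of the small ratios depends on the scaling: with median centring, which moved the median of all genes to 0.21, Apoc3 stood at 0.03 and Ahsg at 0.08, and with cyclic loess Fgb stood at -0.03 and Fgg at -0.04.

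Swimming against nonswimming mice, both on normal food, had 0 of 9 genes at least 2-fold lower or higher, where 1.07% of 15661 genes were lower and 5.14% higher by that size. Beyond the scanner limit 7 of 9 were lower, against 8.7% of all genes, and 0 were higher, against 12.3%. The 7 are Apoa1, Apoa2, Apoc3, Fga, Fgb, Fgg and Ahsg. The median of the 9 was -0.52 beside -0.04 for all genes, whose quartiles were -0.21 and 0.18, and 8 of the 9, all but Trf, lay below the lower quartile. At 1.5-fold, 3 of 9 were lower, the fibrinogen genes, against 4.4% of all genes, and by any size 8 of 9, against 55.1%.

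Chlorella swimming mice against nonswimming mice differ in both food and swimming, and this comparison shares its arrays with the other 2, so its values are not independent of them. All 9 genes were lower, where 45.3% of 15336 genes were lower by any size, and all 9 were lower beyond the scanner limit, against 10.1%. Apoa2 fell past 2-fold, 1 of 9, against 1.49% of all genes, while 0 of 9 rose by that size, against 2.07%, and 0 were higher beyond the scanner limit, against 12%. At 1.5-fold, 8 of 9 were lower, all but Trf, against 5.76%. The median of the 9 was -0.78 beside 0.04 for all genes, and the range ran from -1.10 for Apoa2 to -0.47 for Trf. All genes with a ratio lower than that of Apoa2 made up 1.04%, and of Trf 8.78%. The genes were picked as members of 1 functional class and liver messengers are known to vary together, so they are not 9 independent readings.

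**Figure D3:**
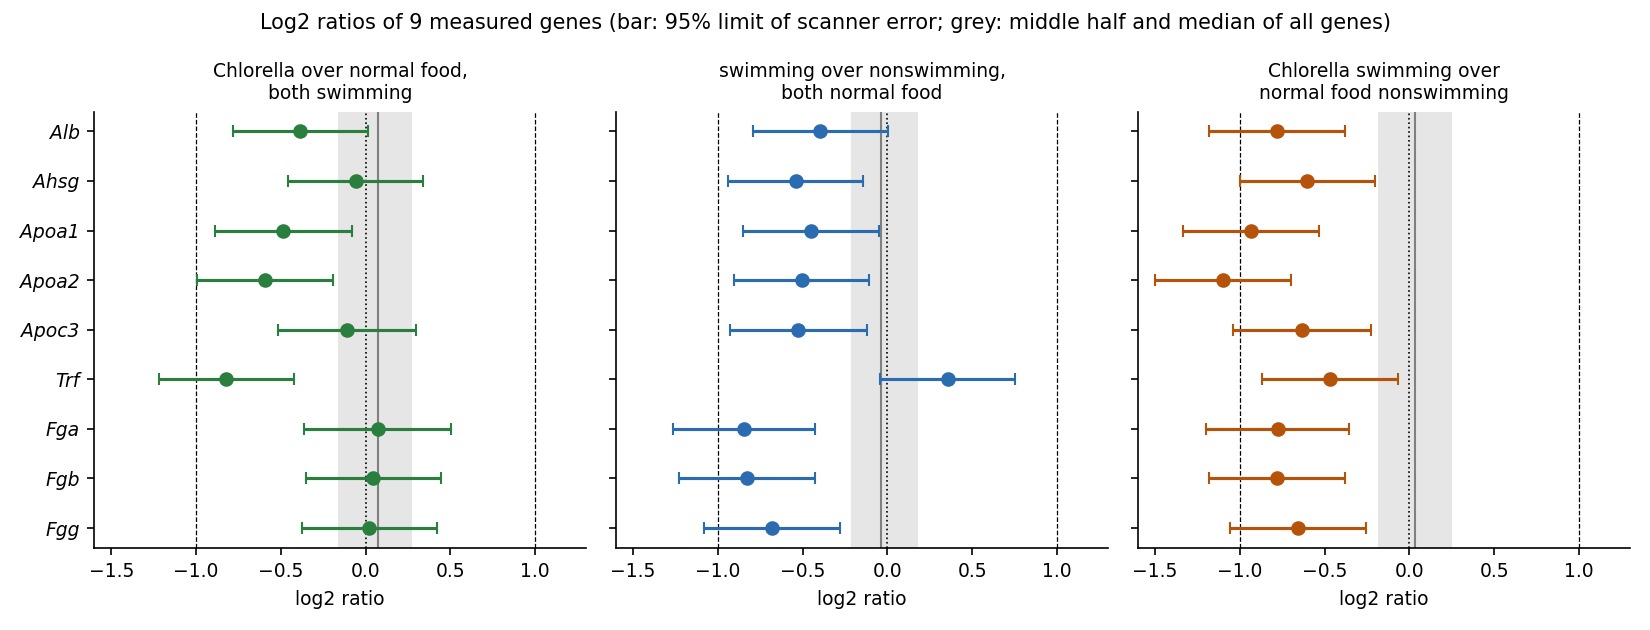
Log2 ratios (horizontal axis) of the 9 measured genes in the comparisons of Chlorella over normal food in swimming mice (left), swimming over nonswimming on normal food (middle) and Chlorella swimming over normal food nonswimming (right), 1 array per group. Points are ratios, bars the 95% limit of the scanner error, dashed lines 2-fold, and the grey band and line the middle 50% and the median of all genes. The fibrinogen genes lie near 0 on the left and between -0.85 and -0.68 in the middle, and Trf lies at -0.82 on the left and 0.35 in the middle.

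Differences between 2 of these genes on the same pair of arrays do not depend on the scaling by a constant, and 36 pairs were set side by side in each comparison with no adjustment for their number. In Chlorella over normal food the difference lay beyond its 95% scanner limit for 8 pairs. In 3 of them Apoa2 was lower than a fibrinogen gene, by a log2 difference of -0.66 ± 0.30 from Fga, -0.64 ± 0.29 from Fgb and -0.62 ± 0.29 from Fgg, and in 5 of them Trf was lower than Apoc3, Fga, Fgb, Fgg or Ahsg. In swimming over nonswimming 8 pairs lay beyond the limit, each of them Trf with another gene, and Trf minus Fga was the largest at 1.20 ± 0.30. In Chlorella swimming over nonswimming it was 1 pair, Apoa2 minus Trf, at -0.63 ± 0.29. The other pairs were not told apart at this error: Apoa1 minus Apoa2 was 0.17 ± 0.29 there, with limits of -0.40 and 0.73.

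The genes whose 3 values ran most like each of these were found by the distance between their scaled log2 values, each gene centred on its own mean, among 13319 genes with a symbol that were well above background on all arrays. A profile of 3 arrays is short, and between 74 genes, for Apoa2, and 515 genes, for Ahsg, lay within a distance of 0.2. Fga and Fgb were each other's nearest gene, at 0.018. The nearest genes to Apoa1 were Exoc3l2 and, at 0.012, Apoc2, the apolipoprotein that activates lipoprotein lipase, followed by C1s1, a complement protease gene. For Fgg they were Lrrc75a, Ubxn1 and Slco1b2, a bile acid and drug transporter of hepatocytes, and for Alb Praf2, Cnot7 and Ftcd, an enzyme of histidine breakdown. For Apoa2 they were Syp, Dact1 and Rhoa, for Apoc3 Cbx8, Ppp3cc and Gask1a, and for Ahsg Pi16, Serping1, which encodes the C1 inhibitor of plasma, and Adcy2. Besides Fgb and Fga, the next for Fga and Fgb were Hsf1 and Chek1. Trf had Ptgfr, Cyb5a and F13a1, the A chain of clotting factor XIII, and no other of the 9 genes within 0.2.

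Other plasma proteins were looked at through a list of clotting factors, protease inhibitors, carriers, apolipoproteins and acute-phase proteins, 55 of which were on the array. In Chlorella swimming over nonswimming 37 of 47 measured members were lower by any size, against 45.3% of all genes, and 21 beyond the scanner limit, against 10.1%, with a median of -0.35. By 2-fold 2 fell, against 1.49% of all genes: Serpind1, encoding the thrombin inhibitor heparin cofactor II (-1.15), and Hpx, encoding the haem carrier hemopexin (-1.01). Apob, the protein of low-density lipoprotein, rose (1.85), 1 of 47, against 2.07%. The brightest of its 5 probes was read, and it was dim at 42.4 units with Chlorella and 14.1 units in nonswimming mice. The other Apob probes are not described. In swimming over nonswimming 31 of 48 were lower by any size, against 55.1% of all genes, with a median of -0.31. There 5 rose by 2-fold, against 5.14% of all genes, and 1 fell, against 1.07%: F13b, the B chain of factor XIII (1.82), and the acute-phase genes Orm2 (1.46) and Orm1 (1.41) rose, and Saa2, a serum amyloid A gene, fell (-1.22). F13b and Saa2 were dim, F13b at 33.8 units in swimming and 9.32 units in nonswimming mice, and Saa2 at 19.6 and 44.3 units. In Chlorella over normal food 31 of 47 were lower, against 40.1% of all genes, with a median of -0.27. There 5 fell, against 4.86% of all genes, and 1 rose, against 1.37%: Orm1 (-1.75), Orm2 (-1.67) and Apom, a lipoprotein-bound carrier of sphingosine phosphate (-1.47), fell, and Saa2 rose (1.25). Orm1 with Orm2, Saa1 with Saa2, and the Mup and Serpina1 genes have near copies, so their probes may not tell them apart.

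Hepatocyte enzymes and transporters differed in both directions. Of 50 on the array, 46 were measured in swimming over nonswimming, of which 12 rose by 2-fold, against 5.14% of all genes, and 0 fell, against 1.07%, while 29 of the 46 were below 0, against 55.1%, and the median was -0.20. Among the largest rises were Gys2, liver glycogen synthase (2.98), and Pck1, a gluconeogenesis enzyme (2.14). Beyond the scanner limit 15 were lower, against 8.7% of all genes, and 13 higher, against 12.3%. Those lower included Abcb11 (-0.68), Slco1b2 (-0.65) and Bhmt (-0.58). In Chlorella over normal food 12 of 44 fell, against 4.86% of all genes, and 1 rose, against 1.37%, with a median of -0.24: Hgd (-2.16), of tyrosine breakdown, and Ass1 (-1.80), of the urea cycle, were among the largest. In Chlorella swimming over nonswimming 2 of 44 rose by 2-fold, Pck1 (1.32) and Gys2 (1.29), against 2.07% of all genes. By that size 3 of 44 fell, against 1.49%: Hal, of histidine breakdown (-1.16), Tdo2, of tryptophan breakdown (-1.03), and Arg1, arginase of the urea cycle (-1.02). The median of the 44 was -0.28. Ass1 and Pck1 are also known in kidney tubules, and Gys2 and Pck1 in fat cells.

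Markers of other cell types moved between the same arrays. Of all genes, 5.14% were at least 2-fold higher and 1.07% lower in swimming over nonswimming. The shares were 1.37% and 4.86% in Chlorella over normal food, and 2.07% and 1.49% in Chlorella swimming over nonswimming. Of 14 measured kidney tubule genes 13 were at least 2-fold higher in swimming over nonswimming (median 2.65) and 11 of 14 were lower in Chlorella over normal food (median -2.05). Their summed scaled signals were 263.3 on the Chlorella swimming array, 259.4 on the normal food swimming array and 224.1 on the nonswimming array, most of it Pvalb, which fast muscle fibres also make, while Pax8 and Nphs1 were not well above background on any array. Fat cell genes had medians of 1.11 in swimming over nonswimming, with 9 of 16 higher by 2-fold, and of -0.97 in Chlorella over normal food, with 4 of 15 lower, and summed scaled signals of 918.6, 1238 and 845.7. Neutrophil genes were higher by 2-fold for 15 of 15 in swimming over nonswimming and lower for 11 of 11 in Chlorella over normal food, with sums of 3.79, 289.1 and 17.4. In these 3 lists the normal food swimming array stood apart. Among the 10 plasma protein genes Trf alone was highest there, and the part of fat, kidney or marrow cells in the value of Trf was not tested. Schwann and oligodendrocyte genes had 0 of 10 past 2-fold in each comparison, with a median of -0.09 for swimming over nonswimming and summed scaled signals of 24.3, 28.4 and 27.5. Keratinocyte genes, like most plasma protein genes, were lower in swimming over nonswimming, with 6 of 10 by 2-fold, 0 higher and a median of -1.46. In Chlorella over normal food 0 of 7 keratinocyte genes passed 2-fold, with a median of -0.26.

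Chlorella swimming over nonswimming, where all 9 measured plasma protein genes were lower, had a median of 0.06 for fat cell genes, 0.59 for kidney tubule genes and 0.21 for muscle fibre genes. Of all genes in this comparison, 1.49% were at least 2-fold lower and 2.07% higher. In the same comparison keratinocyte genes had 5 of 8 measured at least 2-fold lower, with a median of -1.23 and summed scaled signals of 6.55 on the Chlorella swimming array, 8.18 on the normal food swimming array and 14.8 on the nonswimming array. Krt1, Ivl, Flg and Dsg1a of that list were not well above background on any array. Macrophage genes had 3 of 14 lower by 2-fold and a median of -0.79, with sums of 53.6, 137.6 and 99.0. Neutrophil genes had 9 of 11 lower by 2-fold and a median of -2.39, and bone cell genes 5 of 14 and a median of -0.40. Erythrocyte genes had 1 of 8 lower and a median of -0.25, and platelet genes 1 of 8 and a median of -0.50, both lists with 0 higher by that size. Summed scaled signals on the Chlorella swimming, normal food swimming and nonswimming arrays were 111.2, 120.8 and 102.8 for bone cells, 140.7, 249.9 and 131.1 for erythrocytes and 10.2, 19.2 and 9.75 for platelets. The part of these cells, or of blood and liver cells carried over with the tissue, in the values of the plasma protein genes was not tested. Of the intestinal list, Lct, Cdx1, Cdx2, Slc5a1 and Rbp2 were not well above background on any array, and its sums were 2.82, 3.11 and 2.77.

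**Figure D4:**
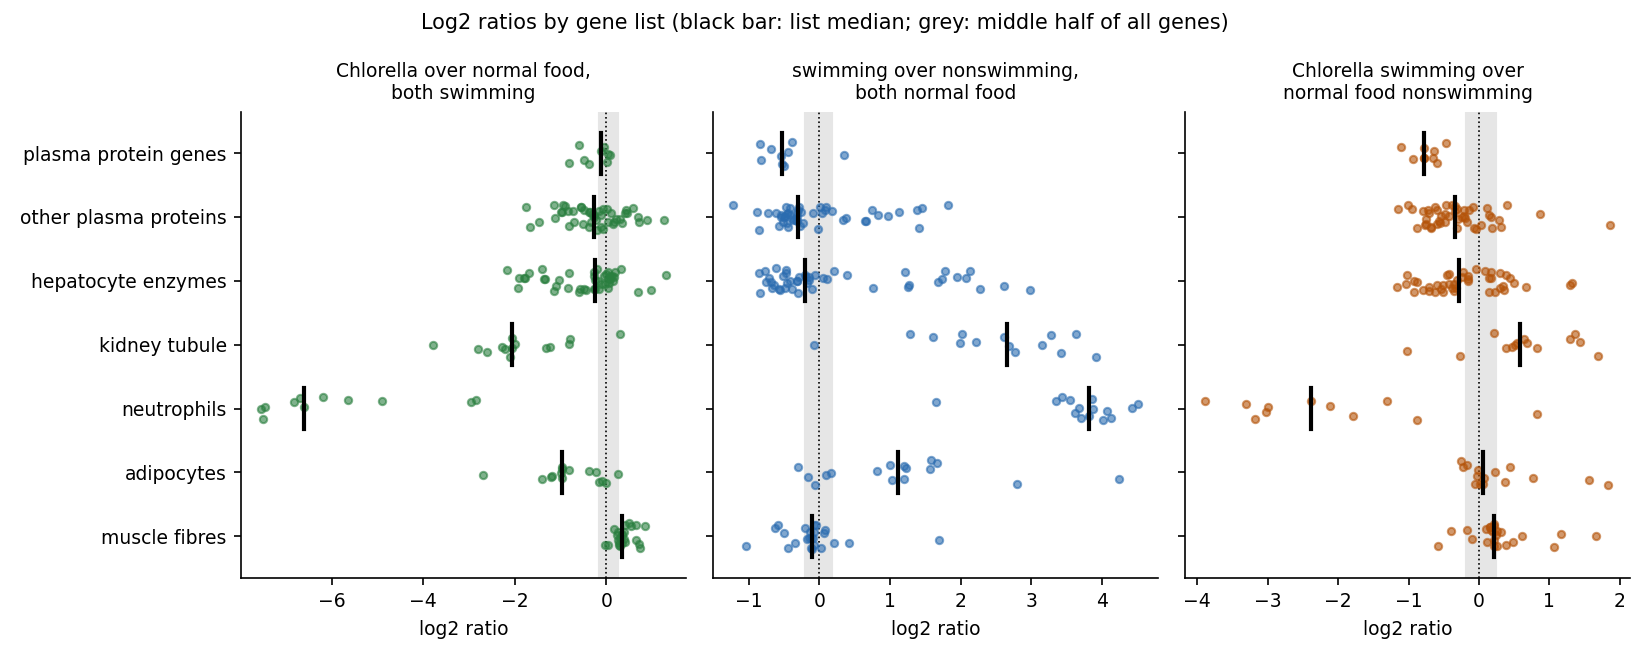
Log2 ratios (horizontal axis, with its own scale in each panel) of the measured members of 7 gene lists in Chlorella over normal food in swimming mice (left), swimming over nonswimming on normal food (middle) and Chlorella swimming over normal food nonswimming (right). Points are genes, black bars list medians and the grey band the middle 50% of all genes. The plasma protein genes have medians of -0.11, -0.52 and -0.78 from left to right, and the neutrophil list -6.61, 3.82 and -2.39.

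Transcription factors that drive liver genes were sparsely read. Of 18 on the array, Foxa1, Foxa3, Onecut1, Onecut2, Nr1i2 and Nr0b2 were not well above background on any array, and 10 were measured in each comparison. Hnf4a, a main regulator of hepatocytes, had 6.37 units with Chlorella, 39.1 units in swimming mice on normal food and 6.73 units in nonswimming mice. Only the middle value was well above background. Kidney tubule genes were also high on that array, with medians of 2.65 over nonswimming and -2.05 for Chlorella over normal food. The part of kidney cells in the value of Hnf4a was not tested. In swimming over nonswimming 3 of 10 rose by 2-fold, against 5.14% of all genes, and 0 fell, against 1.07%. Among the 3 were the bile acid receptor gene Nr1h4 (1.49) and Cebpa (1.25). In Chlorella over normal food 3 of 10 fell, against 4.86%, among them Cebpa (-1.15) and Nr1h4 (-1.03). Cebpb (1.05) alone rose there, 1 of 10, against 1.37%. In Chlorella swimming over nonswimming 0 of 10 passed 2-fold, where 2.07% of all genes were higher and 1.49% lower by that size. The median there was 0.21. Nr1h4 is also known in kidney tubules and Cebpa in fat cells, and the part of those cells was not tested.

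Receptors, transporters and lipases that take up or act on these proteins numbered 17, all measured. In swimming over nonswimming 5 rose by 2-fold, against 5.14% of all genes, and 0 fell, against 1.07%, and the median was 0.30. The largest were Amn (3.32) and Cubn (1.99), which form the uptake receptor for albumin and Apoa1 in kidney tubules, and Itga2b (2.50) and Itgb3 (1.33), which form the fibrinogen receptor of platelets. In Chlorella over normal food 6 fell, against 4.86% of all genes, and 0 rose, against 1.37%, with a median of -0.06. The largest falls were those of Itga2b (-3.14), Amn (-2.34), Itgb3 and Itgam. In Chlorella swimming over nonswimming 0 of 17 fell by 2-fold, against 1.49% of all genes, and 1 rose, against 2.07%, and the median was 0.02. Tfrc, the receptor for transferrin on most cells, had ratios of 0.07, -0.29 and -0.22 in the 3 comparisons, and Tfr2, the liver and erythroid receptor, -1.37, 1.21 and -0.16.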

How the data were processed

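Per the labels' protocols, each group's RNA came from 10 mice, was combined before Cy3 labelling and went onto 1 array. All 3 arrays shared 1 slide and 1 scan per the file headers, and differed in position. The deposited scanner files hold intensity values and flags from Agilent Feature Extraction (version 9.5 in the submitters' processing notes), and the table the authors deposited has log2 values for 13683 spots on an unstated centre, used only as differences. Control spots and 194 outlier spots of 43379 were left out and spots of a probe averaged. Log2 processed signals were scaled to each array's 75th percentile (Python 3.11.15, numpy 2.4.6; limma 3.58.1 in R 4.3.3 for alternatives). Probes were named through accession or symbol with RefSeq's table of GRCm38.p6, and the brightest probe stood for a gene. With 1 array per group no test was possible: a gene was called where 2 arrays differed at least 2-fold and both read it well above background, and counts beyond 1.96 scanner errors were added after seeing the data.

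The 10 genes and the gene lists were chosen with earlier results of these data known. All 10 were named, with the up to 4 largest 2-fold members of each other list described, genes at or below background, map neighbours and 3 nearest genes by likeness. Tfrc, Tfr2, Arg1, Abcb11, Slco1b2 and Bhmt were chosen after their values were seen. Alternatives were 4 other scalings, normexp with an offset of 50, no filter or a signal of at least 50, the mean over probes, 1.5-fold, and the authors' values. Some results withheld for evaluation are not reported here. The number of arrays limits the precision.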

Additional observations from a re-analysis of the deposited data

How the results depend on the processing

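With 1 pooled array per group there is no measure of the spread between mice. No paired analysis was possible because each group has 1 array, and for the same reason no replicate could be left out. The count of the 9 genes at least 2-fold lower was 0 for Chlorella over normal food in swimming mice, 0 for swimming over nonswimming and 1 for Chlorella swimming over nonswimming. It became 2, 3 and 8 with 1.5-fold in place of 2-fold, and 3, 7 and 9 with the 95% limit of the scanner error, which was chosen after seeing the data. Median centring made it 1 for swimming over nonswimming (Fga, just past 2-fold), and no filter on dim probes made it 2 of 10 for Chlorella swimming over nonswimming, Ttr being added. Under the alternatives the other 85 counts and medians stayed within 1.5 times the count or moved by less than the 95% limit of the scanner error, as did 235 values of single genes, and the 2 that moved more were those of Fga with normexp. The median of the 9 genes ranged from -0.25 to 0.03 for Chlorella over normal food, above 0 with median centring alone, from -0.68 to -0.38 for swimming over nonswimming and from -0.80 to -0.63 for Chlorella swimming over nonswimming. The all-gene median was 0.21 with median centring, against 0.08, in the first comparison and -0.19, against -0.04, in the next.

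Over all genes the counts by size moved more. Genes at least 2-fold lower in Chlorella over normal food numbered 754, but 301 with normexp, 1998 with no filter, 279 with the stricter filter and 502 in the authors' values. Those higher numbered 212, but 51, 1233, 83 and 128. With median centring 310 were higher and 636 lower. Those higher in swimming over nonswimming numbered 805, but 387, 2104, 324 and 464, and those lower 167, but 42, 1255, 52 and 102, while median centring gave 672 higher and 276 lower. In Chlorella swimming over nonswimming 318 were higher and 228 lower, but 92 and 57 with normexp, 1395 and 1266 with no filter, 146 and 78 with the stricter filter, and 175 higher in the authors' values. The authors' deposited table covers 8 of the 9 genes through the probe used here, and gives -1.12 for Apoa2 in Chlorella swimming over nonswimming. Ttr, Apoa4 and Hnf4a lie at or near background, where signals set the limit. F13b, Tdo2, Itga2b and Cubn were also dim, with lowest signals of 9.32, 9.76, 8.63 and 8.67 units. Other named genes were dim too, among them Hgd, Arg1, Itgam, Amn and Nr1h4. Their lowest signals were 13.7, 14.3, 15.2, 16.5 and 18.2 units.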
